A study of Mus musculus with 17 samples.

Results

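The transcription factor NRF2 (gene Nfe2l2) and 9 genes around it were followed through macrophage RNA-seq. They are its inhibitors Keap1 and Bach1 and its antioxidant targets Hmox1, Nqo1, Gclc, Gclm, Txnrd1, Srxn1 and Slc7a11. Each was found by its symbol among 24453 gene models, and all 10 were present. In unstressed cells KEAP1 holds NRF2 in the cytoplasm and hands it to a ubiquitin ligase for degradation, and oxidants or electrophiles that modify KEAP1 let NRF2 enter the nucleus. There it pairs with a small MAF protein and binds antioxidant response elements, where the repressor BACH1 competes for the same sites. NRF2 is a bZIP protein like the AP-1 members, and its element contains a core that resembles the AP-1 motif.

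The study asked how far the AP-1 members ATF3, Jun and JunD do separate work in macrophages. Its polyA RNA-seq covers a pair of cell systems. Immortalized bone marrow-derived macrophages (iBMDMs) of C57Bl/6EiJ origin carry mutant BRAF and Myc in every group and were all treated with vehicle. Cas9-expressing iBMDMs were infected with guide viruses. The guides targeted Atf3 in the group labelled Atf3KO, Jun in that labelled JunKO and Jund in that labelled JunDKO. The cells were sorted for a marker of the virus, and cells with a scramble control (Scramble, zsGreen in the titles) serve as reference. These sorted cells are not stated to be clones. There are 2 libraries per group, called biological replicates without a statement of what separated them, so that p-values measure the spread between these libraries. Thioglycollate-elicited macrophages (TGEMs) are primary peritoneal cells from young adult mice without an engineered allele. From C57Bl/6EiJ mice there is 1 vehicle library and 1 treated for 1 h with Kdo2 lipid A (KLA), an agonist of TLR4. From Balb/cJ mice there are 1 vehicle and 2 KLA libraries. In the titles the second Atf3KO library carries a later date than the other 7 iBMDM libraries. All are labelled male, yet the TGEM libraries held 863 to 8676 reads of Xist and the iBMDM libraries 0 to 3. Expression is given as RPKM, reads per kilobase of exon scaled to the depth of the library.

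Library depth was 1553296 to 18444433 reads. The targeted genes did not fall in the libraries labelled as knockouts, although exonic reads do not test whether a reading frame was edited. The study's text reports that western blots of these proteins bore out the efficiency of the knockouts. It also reports a substantial loss of Jun binding to DNA in Jun knockout iBMDMs. Neither was analysed here. The level of Atf3 was 80.7 and 77.4 RPKM in Scramble and 154 and 169 in Atf3KO, where it rose by 1.02 ± 0.16 on the log2 scale (SE of the fit, 2 libraries in each group, adjusted p = 0.00237 by limma-trend). Jun measured 26.2 and 20.5 RPKM in JunKO and 17.6 and 18.5 in Scramble (adjusted p = 0.912), and Jund measured 6.94 and 6.07 in JunDKO and 9.19 and 8.33 in Scramble (adjusted p = 0.654). The group names below are therefore the labels' names. Jund measured 22.6 and 83.0 RPKM in Atf3KO. It rose there over Scramble by 2.19 ± 0.49 on the log2 scale (adjusted p = 0.0100 by limma-trend). Jun measured 17.9 and 46.2 RPKM in Atf3KO (adjusted p = 0.192). All 9 macrophage markers examined averaged at least 1 RPKM in both cell systems. Their summed level was 22457 to 24039 RPKM in Scramble, 24117 to 33226 in Atf3KO, 30844 to 31198 in JunKO, 17040 to 17621 in JunDKO and 8059 to 11029 in TGEMs. Most of it was Lyz2, which averaged 22532 RPKM over the iBMDM libraries and 6150 over the TGEM libraries. Markers of fibroblasts and mesothelium summed to 45.0 to 91.8 RPKM in TGEMs and to at most 0.532 in iBMDMs, and 7 of 10 neutrophil markers were at 0 in every iBMDM library. B cell, mast cell, T cell and eosinophil marker sums were at most 25.2, 13.7, 3.39 and 6.15 RPKM in any library. Neutrophil marker sums were 41.8 to 46.0 RPKM in Scramble, 22.1 to 42.2 in Atf3KO, 29.6 to 29.7 in JunKO and 10.8 to 11.1 in JunDKO. In TGEMs they were 5.26 to 33.5 RPKM. Only 2 of the 10 averaged at least 1 RPKM in iBMDMs, with S100a8 the highest at 22.2. The part of these markers in the results was not tested. In bulk RNA, fewer cells of a type and less RNA per cell cannot be told apart.

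Because NRF2 and AP-1 proteins recognise related letters, the sequence around the starts of these genes was read for 3 motifs on both strands. These were TGACTCA, the AP-1 site, TGACGTCA, the CRE-like site of ATF family dimers, and TGACNNNGC, the core of the antioxidant response element, which can overlap the first. RefSeq windows on GRCm38 (mm10) that hold 250 bases before and 50 after the start were found for 8 of the 10 genes. Hmox1 and Gclc were not among them. All 300 bases of each window were searched. There were 10 windows, since Txnrd1 has 3, and 4 of the 10 held a match, each in a different gene. The other 2 windows of Txnrd1, at starts other than that of the gene model, held none. Of all 32851 windows of this length, 18.2% held at least 1 of the 3 motifs, 5.2% TGACTCA, 1.79% TGACGTCA and 12.4% TGACNNNGC. The 4 upstream sequences with a match, and that of Slc7a11, which had no match, are printed 5′ to 3′ on the strand of the gene, with matches in capitals.
Srxn1, chr2:152105274-152105523, plus strand: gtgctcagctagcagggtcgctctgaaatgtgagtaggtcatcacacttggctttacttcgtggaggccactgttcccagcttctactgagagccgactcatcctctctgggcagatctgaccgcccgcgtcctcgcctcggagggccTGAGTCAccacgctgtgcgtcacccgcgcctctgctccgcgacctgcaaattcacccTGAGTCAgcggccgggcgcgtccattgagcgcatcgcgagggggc
Gclm, chr3:122245307-122245556, plus strand: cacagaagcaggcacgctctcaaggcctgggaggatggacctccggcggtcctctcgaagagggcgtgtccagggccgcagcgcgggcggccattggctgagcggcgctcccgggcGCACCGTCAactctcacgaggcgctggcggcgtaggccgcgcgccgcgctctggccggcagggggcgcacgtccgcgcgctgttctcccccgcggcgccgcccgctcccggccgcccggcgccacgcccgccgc
Txnrd1, chr10:82858956-82859205, plus strand: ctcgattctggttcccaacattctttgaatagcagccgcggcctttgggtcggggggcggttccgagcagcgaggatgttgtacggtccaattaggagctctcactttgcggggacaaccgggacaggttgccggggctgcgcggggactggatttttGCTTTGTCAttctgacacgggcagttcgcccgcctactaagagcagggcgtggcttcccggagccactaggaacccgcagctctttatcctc
Nfe2l2, chr2:75704664-75704913, minus strand: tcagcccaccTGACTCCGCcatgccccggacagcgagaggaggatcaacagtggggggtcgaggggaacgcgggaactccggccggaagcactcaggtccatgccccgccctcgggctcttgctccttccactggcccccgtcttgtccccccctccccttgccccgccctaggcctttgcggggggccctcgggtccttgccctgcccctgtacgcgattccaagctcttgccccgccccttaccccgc
Slc7a11, chr3:50443614-50443863, minus strand: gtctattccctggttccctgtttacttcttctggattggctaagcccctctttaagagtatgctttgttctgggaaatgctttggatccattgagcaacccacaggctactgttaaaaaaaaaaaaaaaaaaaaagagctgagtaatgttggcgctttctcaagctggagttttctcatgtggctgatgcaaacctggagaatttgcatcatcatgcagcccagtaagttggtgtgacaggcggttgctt
The capitals in Srxn1 are 2 copies of TGACTCA read on the opposite strand, which begin 102 and 45 bases before the start. Those in Gclm and Txnrd1 are TGACGGTGC and TGACAAAGC, also on the opposite strand, and begin 134 and 92 bases before it. Nfe2l2 holds TGACTCCGC on its own strand, 240 bases before the start. Srxn1 also holds TGACCTAGC on the opposite strand after the start, outside the stretch printed. Keap1, Bach1, Nqo1 and Slc7a11 had no match in these windows, which says nothing of distant elements. A match of letters describes the sequence and does not show that a factor binds there.

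In Scramble iBMDMs the targets of NRF2 were expressed at very different levels per length. Hmox1, which encodes the heme-degrading enzyme heme oxygenase-1, averaged 665 RPKM ± 59.4 (SD, n = 2), more than 99.6% of gene models with at least 1 RPKM. Gclm followed at 382 ± 32.4, Txnrd1 at 324 ± 8.50 and Srxn1 at 214 ± 9.64. Nfe2l2 itself averaged 150.4 RPKM ± 14, above Gclc at 76.1 ± 5.16 and Slc7a11 at 74.7 ± 15.2. Keap1 (21.6 ± 6.33), Bach1 (18.8 ± 0.995) and Nqo1 (9.75 ± 3.34) were the lowest. Gclc and Slc7a11 overlapped between libraries, as did Keap1 and Bach1. Over all 13 libraries the range of log2(RPKM + 1) was widest for Slc7a11 (5.73) and Gclm (5.69) and narrowest for Nfe2l2 (1.07), followed by Keap1 (1.66) and Bach1 (2.04), so that the regulators varied least of the 10 genes.

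**Figure D1:**
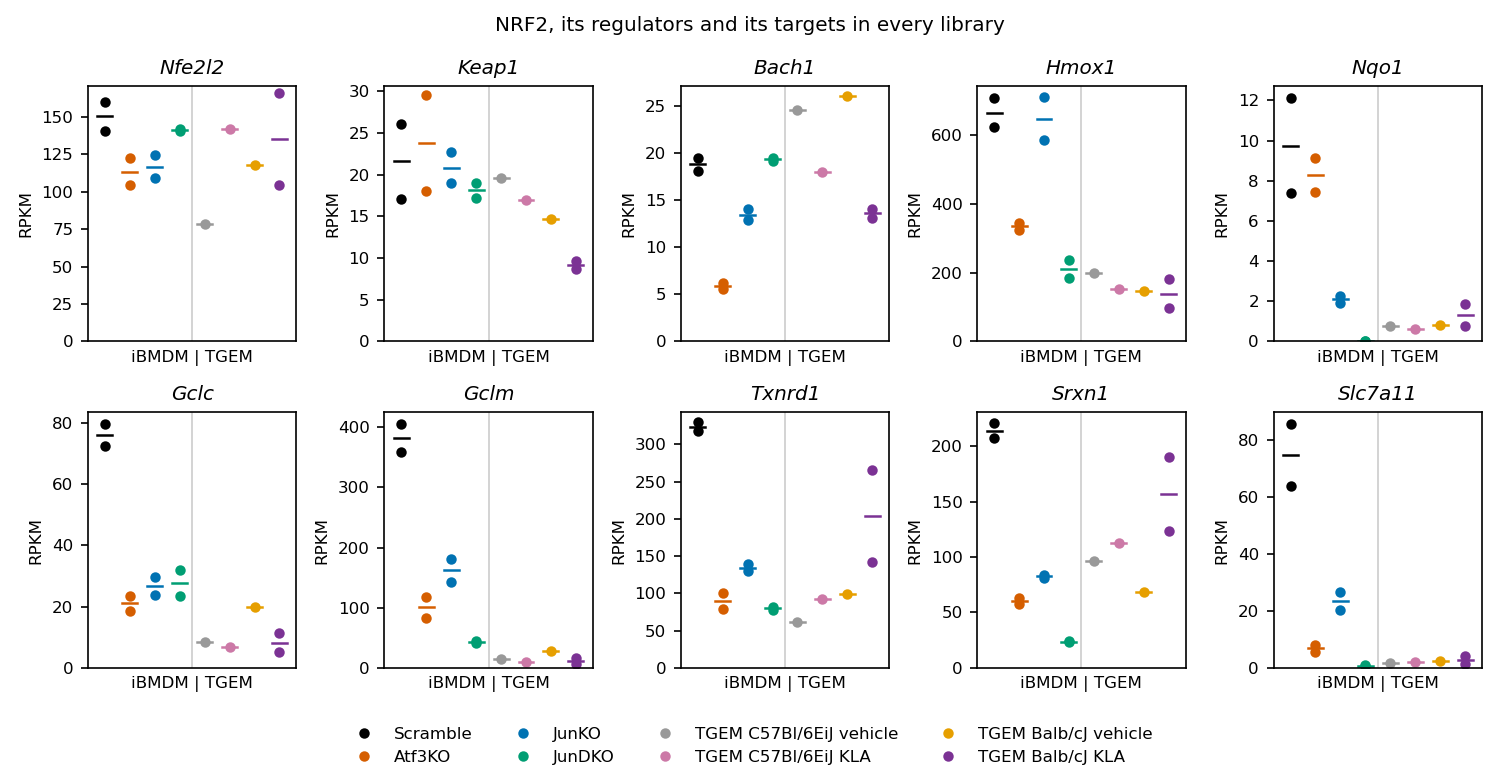
RPKM of each of the 10 genes in all 13 libraries, on linear axes that start at 0; points are libraries, short lines group means, and the grey line separates iBMDMs (left) from TGEMs (right). Slc7a11, Gclm, Gclc, Txnrd1 and Srxn1 are lower in all 6 knockout libraries than in both Scramble libraries, while Nfe2l2 and Keap1 show no such gap to all 6.

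Most antioxidant targets fell in Atf3KO and JunDKO and fewer in JunKO, and the transcripts of NRF2 and KEAP1 did not pass the test in any of the 3 comparisons. In Atf3KO, 7 of the 10 genes fell (adjusted p under 0.05, limma-trend over 10691 tested genes), where 20.6% of all tested genes fell. Without the second Atf3KO library, the one with a later date, 7 of the 10 fell as well. In JunDKO 7 of 10 fell against a background of 4.82%, and in JunKO 3 of 10 fell against 0.122%. None of the 10 rose in these comparisons. An unadjusted p under 0.05 was reached by 8 of the 10 in Atf3KO, 7 in JunKO and 7 in JunDKO. Of all 10691 tested genes, 5543, 842 and 2939 reached it. The median log2 fold change of the 10 genes was -1.66 in Atf3KO, where the median of all tested genes was 0.05. In JunKO the medians were -1.25 and 0.01, and in JunDKO -1.84 and 0.23. The 3 comparisons share the Scramble libraries. Gclc, Txnrd1 and Srxn1 fell in all 3, as did 0.0935% of all tested genes (10 of 10691, these included). Their JunKO calls were lost without any 1 library of that comparison. With Gclm and Slc7a11, 5 of the 10 genes were lower in every knockout library than in both Scramble libraries, against 4.54% of all tested genes. Such a gap between groups, in either direction, was present for 70.8% of all tested genes in Atf3KO, 37.2% in JunKO and 61.6% in JunDKO, beside 8, 8 and 7 of the 10 genes.

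The regulators come first. Nfe2l2 (chr2:75675513-75704663, minus strand) measured 140.5 and 160.3 RPKM in Scramble, 142 and 141 in JunDKO, 124 and 109 in JunKO and 122 and 105 in Atf3KO. Both Atf3KO and both JunKO libraries lay below Scramble, and JunDKO overlapped it. Its log2 fold change was -0.40 ± 0.17 in Atf3KO (adjusted p = 0.0881), -0.36 ± 0.17 in JunKO (adjusted p = 0.690) and -0.09 ± 0.17 in JunDKO (adjusted p = 0.778; SE, limma-trend). The first of these passed in 3 of its 14 alternatives, with an adjusted p as low as 0.0370.

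Keap1 (chr9:21229730-21239332, minus strand), which encodes the adaptor that presents NRF2 for degradation, measured 26.0 and 17.1 RPKM in Scramble, 17.2 and 19.0 in JunDKO, 22.8 and 18.9 in JunKO and 18.0 and 29.6 in Atf3KO. All groups overlapped. Its log2 fold change over Scramble was 0.12 ± 0.29 in Atf3KO (adjusted p = 0.750), -0.02 ± 0.29 in JunKO (adjusted p = 1) and -0.21 ± 0.29 in JunDKO (adjusted p = 0.670). Removing the trend with GC content, described below, turned the value in Atf3KO to -0.63 with an adjusted p of 0.0188.

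Bach1 (chr16:87698954-87733346, plus strand), the repressor of Hmox1 and other targets, measured 18.1 and 19.5 RPKM in Scramble and 6.14 and 5.60 in Atf3KO. It measured 12.8 and 14.1 RPKM in JunKO and 19.1 and 19.4 in JunDKO. The Atf3KO libraries were lowest, the JunKO libraries lay between, and JunDKO sat within the Scramble range. Bach1 fell in Atf3KO, with a log2 fold change of -1.53 ± 0.18 (adjusted p = 9.05e-04), whereas its changes of -0.45 ± 0.18 in JunKO (adjusted p = 0.563) and 0.04 ± 0.18 in JunDKO (adjusted p = 0.913) did not pass. The transcripts of the repressor and of 6 enzyme and transporter genes fell in the same Atf3KO libraries.

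Hmox1 (chr8:75093618-75100593, plus strand) measured 707 and 623 RPKM in Scramble and 711 and 584 in JunKO, which overlap. It measured 325 and 345 in Atf3KO and 235 and 183 in JunDKO, both below Scramble without overlap. Hmox1 fell in Atf3KO, with a log2 fold change of -0.99 ± 0.19 (adjusted p = 0.00587) and in JunDKO, at -1.67 ± 0.19 (adjusted p = 0.00122). Its change in JunKO was -0.04 ± 0.19 (adjusted p = 0.987).

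Nqo1 (chr8:107388225-107403205, minus strand), a quinone reductase often used to read out NRF2 activity, was expressed at a low level. It measured 7.38 and 12.1 RPKM in Scramble, 9.13 and 7.43 in Atf3KO, 1.90 and 2.27 in JunKO and 0 in both JunDKO libraries. Atf3KO overlapped Scramble, and JunKO and JunDKO lay below it. With 54 reads in the Scramble libraries and 0 in JunDKO, whose second library was the deepest of all, the level was at least 98.8-fold lower, taking 3 reads over the JunDKO group as the limit a count of 0 allows. That bound rests on the second JunDKO library, and from the first alone it is 7.68-fold. The fit gave an adjusted p of 3.33e-04 for JunDKO. The log2 fold change was -1.77 ± 0.29 in JunKO (adjusted p = 0.0681) and -0.18 ± 0.29 in Atf3KO (adjusted p = 0.632). The change in JunKO passed in 1 of its 14 alternatives.

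Slc7a11 encodes the light chain of the transporter that imports cystine in exchange for glutamate, and cystine supplies the cysteine of glutathione. Slc7a11 (chr3:50364936-50443613, minus strand) measured 63.9 and 85.4 RPKM in Scramble, 20.4 and 26.5 in JunKO, 8.00 and 5.65 in Atf3KO and 0.629 and 0.877 in JunDKO. No group overlapped another. The JunDKO values rest on 9 and 149 reads. Slc7a11 fell in Atf3KO, with a log2 fold change of -3.28 ± 0.25 (adjusted p = 1.98e-04) and in JunDKO, at -5.42 ± 0.25 (adjusted p = 1.33e-05). As a ratio of mean RPKM it was 10.9-fold lower in Atf3KO and 99.2-fold lower in JunDKO. Over 14 alternatives the log2 fold change ranged from -3.49 to -2.54 in Atf3KO and from -6.44 to -3.78 in JunDKO. In JunKO the value was -1.63 ± 0.25 (adjusted p = 0.0574), a 3.18-fold lower mean that did not pass. That change passed in 3 of its 14 alternatives.

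Gclm and Gclc encode the modifier and catalytic subunits of glutamate-cysteine ligase, the enzyme that limits glutathione synthesis. Gclm (chr3:122245557-122267215, plus strand) measured 359 and 405 RPKM in Scramble, 143 and 181 in JunKO, 83.5 and 118 in Atf3KO and 41.2 and 45.0 in JunDKO, again without overlap. Gclm fell in Atf3KO, with a log2 fold change of -1.93 ± 0.22 (adjusted p = 7.81e-04) and in JunDKO, at -3.12 ± 0.22 (adjusted p = 1.18e-04), and its change of -1.24 ± 0.22 in JunKO did not pass (adjusted p = 0.0969). The change of Gclm in JunKO passed in 2 of its 14 alternatives. Gclc (chr9:77754535-77794489, plus strand) measured 79.8 and 72.5 RPKM in Scramble, and 23.6 and 32.02 in JunDKO, 23.9 and 29.6 in JunKO and 23.5 and 18.6 in Atf3KO. All 6 knockout libraries lay below Scramble. Gclc fell in Atf3KO, with a log2 fold change of -1.81 ± 0.22 (adjusted p = 0.00106), in JunKO, at -1.48 ± 0.22 (adjusted p = 0.0488), and in JunDKO, at -1.43 ± 0.22 (adjusted p = 0.00504). The JunKO call was lost in 11 of its 14 alternatives, and the JunDKO call without the first JunDKO library (adjusted p = 0.0618).

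Txnrd1 encodes the cytosolic thioredoxin reductase, which keeps thioredoxin reduced with NADPH, and Srxn1 encodes sulfiredoxin, which repairs overoxidised peroxiredoxins. Txnrd1 (chr10:82859206-82897724, plus strand) measured 330 and 318 RPKM in Scramble, 139 and 129 in JunKO, 101 and 78.4 in Atf3KO and 77.4 and 81.8 in JunDKO. The JunKO libraries lay between Scramble and the other knockouts, and Atf3KO and JunDKO overlapped. Txnrd1 fell in Atf3KO, with a log2 fold change of -1.85 ± 0.17 (adjusted p = 3.66e-04), in JunKO, at -1.26 ± 0.17 (adjusted p = 0.0444), and in JunDKO, at -2.01 ± 0.17 (adjusted p = 3.50e-04). A model of Eid3 lies on the same strand within the span of Txnrd1, and how reads there were assigned is not given in the sources used here.

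Srxn1 (chr2:152105524-152111376, plus strand), the gene with both AP-1 sites in its printed upstream sequence, measured 221 and 207 RPKM in Scramble, 83.8 and 81.2 in JunKO, 63.3 and 58.0 in Atf3KO and 24.1 and 23.2 in JunDKO. Replicates lay close together and no group overlapped another. Srxn1 fell in Atf3KO, with a log2 fold change of -1.80 ± 0.16 (adjusted p = 2.89e-04), in JunKO, at -1.36 ± 0.16 (adjusted p = 0.0179), and in JunDKO, at -3.13 ± 0.16 (adjusted p = 1.99e-05). Its mean RPKM was 9.06-fold lower in JunDKO and 2.59-fold lower in JunKO.

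**Figure D2:**
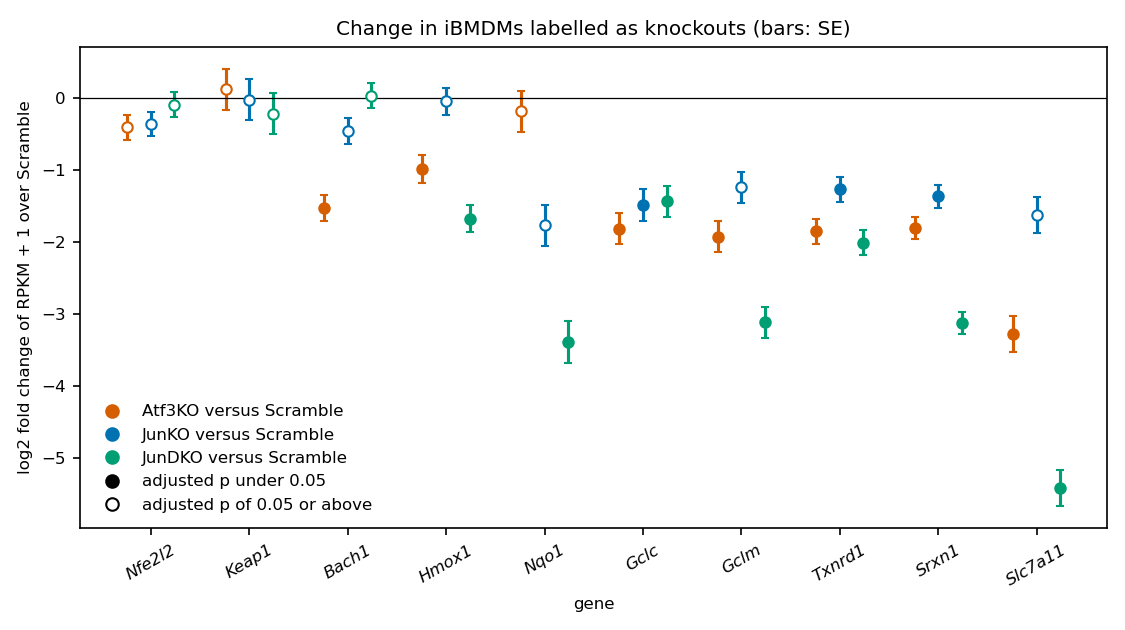
Fitted log2 fold change of RPKM + 1 over Scramble for the 10 genes in each knockout; bars are standard errors and filled points have an adjusted p under 0.05. Nfe2l2 and Keap1 have no filled point, and Slc7a11 reaches the lowest values, -3.28 in Atf3KO and -5.42 in JunDKO.

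The 3 calls in JunKO were each lost when any 1 of the 4 libraries of that comparison was left out, which left 0 of 10 genes past the threshold each time, and when only the 2 groups compared were fitted. Over 14 alternatives the call was lost in 11 for Gclc, 7 for Txnrd1 and 5 for Srxn1. Their fold changes kept the same direction, and over these fits ranged from -1.63 to -1.33 for Gclc, -1.31 to -1.21 for Txnrd1 and -1.41 to -1.32 for Srxn1. In the libraries labelled Atf3KO the fold changes of all genes rose with GC content (Spearman's rho of 0.50 across 10617 genes, given as a description), and 10425 and 10631 gene models had reads, against 11884 to 12533 in the other iBMDM libraries. The 10 genes span a GC content from 40.7% (Slc7a11) to 59.0% (Keap1), around a median of 49.2% over all models. After the trend was removed, 8 of the 10 genes had fallen in Atf3KO, the 7 above and Keap1, and the change of Slc7a11 was -2.54 in place of -3.28.

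Whether the knockouts differed from each other was tested directly in the same fit. Between JunDKO and JunKO, 6 of 10 genes were lower in JunDKO (3.81% of all tested genes were lower). The differences were -3.79 ± 0.25 for Slc7a11 (adjusted p = 1.18e-04), -1.88 ± 0.22 for Gclm (adjusted p = 0.00178), -1.76 ± 0.16 for Srxn1 (adjusted p = 5.0e-04) and -1.63 ± 0.19 for Hmox1 (adjusted p = 0.00194) on the log2 scale. With a pseudocount of 5 the value of Slc7a11 was -2.30. Nqo1 (adjusted p = 0.0125) and Txnrd1 (adjusted p = 0.0375) passed as well, but each lost its call in several alternatives. Gclc did not differ detectably, with a difference of 0.05 ± 0.22 (adjusted p = 0.920).

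Between Atf3KO and JunDKO, 5 of 10 genes were higher in Atf3KO and 1 was lower (14.9% and 25.9% of all tested genes). Slc7a11 was higher by 2.15 ± 0.25 on the log2 scale (adjusted p = 6.53e-04), Srxn1 by 1.32 ± 0.16 (adjusted p = 6.62e-04), Gclm by 1.19 ± 0.22 (adjusted p = 0.00387), and Hmox1 by 0.69 ± 0.19 (adjusted p = 0.0227). The value of Slc7a11 ranged from 1.03 to 2.95 over its alternatives. Nqo1 passed (adjusted p = 2.39e-04) with 0 reads in JunDKO, so the size of its fitted difference depends on the pseudocount. Bach1 was the one lower in Atf3KO, at -1.56 ± 0.18 (adjusted p = 6.05e-04). The call of Hmox1 was lost in 4 of its 14 alternatives, with a value as low as 0.41. Txnrd1 and Gclc did not pass, with differences of 0.16 ± 0.17 (adjusted p = 0.494) and -0.38 ± 0.22 (adjusted p = 0.200).

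Between Atf3KO and JunKO, 5 of 10 genes were lower in Atf3KO and Nqo1 was higher (18.5% and 17.0% of all tested genes). Slc7a11 differed by -1.65 ± 0.25 on the log2 scale (adjusted p = 0.00306), and by -0.98 after removal of the GC trend. Bach1 differed by -1.07 ± 0.18 (adjusted p = 0.00424) and Hmox1 by -0.94 ± 0.19 (adjusted p = 0.00842). Gclm (-0.69 ± 0.22, adjusted p = 0.0394) and Txnrd1 (-0.59 ± 0.17, adjusted p = 0.0326) lost their calls in several alternatives. Without the first JunKO library 3 of the 6 calls were left, and Hmox1 had an adjusted p of 0.0547. The order of mean levels was Scramble, JunKO, Atf3KO and JunDKO for Slc7a11, Gclm, Srxn1, Txnrd1 and Hmox1. In that order Scramble and JunKO did not differ beyond the threshold for Slc7a11, Gclm and Hmox1, nor did Atf3KO and JunDKO for Txnrd1. JunKO and Atf3KO did not for Srxn1 (-0.44 ± 0.16, adjusted p = 0.0578). This difference in Srxn1 passed in 6 of its 14 alternatives and ranged from -0.71 to -0.38.

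Other genes of the pathway were read from lists of 82 genes, all of them in the table and 68 of them tested in iBMDMs. In JunDKO 26 fell and 1 rose, in Atf3KO 21 fell and 11 rose, and in JunKO 2 fell and 0 rose (0.159% of all tested genes rose). The median log2 fold change of the 68 was -0.29 in JunDKO, -0.18 in Atf3KO and -0.26 in JunKO, beside medians over all tested genes of 0.23, 0.05 and 0.01. These counts depended on single libraries. Without JunDKO replicate 2, 16 fell in JunDKO, and 18 fell without JunDKO replicate 1 or Scramble replicate 1. In Atf3KO 14 fell and 3 rose without Scramble replicate 2, and 16 fell and 6 rose without Scramble replicate 1. Higher calls made up 6.93% of all tested genes in JunDKO and 20.7% in Atf3KO. With the GC trend removed, 8 fell and 0 rose in JunKO, 30 fell and 6 rose in JunDKO, and 28 fell and 11 rose in Atf3KO. Of all 10617 genes in those fits, 49, 768 and 2038 fell and 54, 1596 and 2310 rose.

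In JunDKO, where 4.82% of all tested genes fell, the glutathione list had 7 of 14 tested genes lower and 0 higher, the thioredoxin and peroxiredoxin list 4 of 13, the NADPH supply list 4 of 6, the heme and iron list 3 of 9 and other detoxification targets 7 of 15. The largest falls among genes of at least 16 RPKM were in Gsta3, Gsr and Fth1. Gsta3, a glutathione transferase, measured 33.8 and 44.1 RPKM in Scramble, 12.0 and 11.5 in JunKO, 4.83 and 5.26 in Atf3KO and 0 in both JunDKO libraries. At 192 reads in Scramble and 0 in JunDKO it was at least 351-fold lower, by the same limit of 3 reads over the group, and at least 27.3-fold lower from the first JunDKO library alone. Gsr, glutathione reductase, measured 73.7 and 76.3 RPKM in Scramble and 2.91 and 1.90 in JunDKO, with a log2 fold change of -4.50 ± 0.21 (adjusted p = 1.46e-05).

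Fth1, the ferritin heavy chain that stores iron, measured 22402 and 17582 RPKM in Scramble and 1484 and 1256 in JunDKO. Fth1 fell in JunDKO, at -3.86 ± 0.22 on the log2 scale (adjusted p = 4.22e-05), while Atf3KO and JunKO libraries held 12135 to 16724 RPKM. Slc40a1, which encodes the iron exporter ferroportin, was the 1 gene of the lists that rose in JunDKO, from 18.3 and 22.4 to 43.4 and 46.3 RPKM (1.11 ± 0.25, adjusted p = 0.0243). With library medians made equal, 31 of the 68 fell and 0 rose, and its call was also lost without any 1 of the 4 Scramble and JunDKO libraries. Among the regulators and partners of NRF2, 1 of 11 tested genes passed in JunDKO. This was Sqstm1, which encodes the autophagy receptor p62 and was named after its value was seen, at -1.46 ± 0.22 (adjusted p = 0.00422).

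In Atf3KO, where 20.6% of all tested genes fell and 20.7% rose, the glutathione list had 4 of 14 tested genes lower and 3 higher, the thioredoxin and peroxiredoxin list 3 of 13 lower and 2 higher, NADPH supply 3 of 6 lower, heme and iron 1 of 9 lower and 1 higher, and other detoxification targets 8 of 15 lower and 1 higher. Among regulators and partners 4 of 11 rose and 2 fell. Among genes with a group mean of at least 16 RPKM, the largest falls were in Cd36, a scavenger receptor for lipids, at -3.57 ± 0.24 (adjusted p = 1.10e-04), Esd, an esterase, at -2.74 ± 0.18 (adjusted p = 1.10e-04) and Prdx1, a peroxiredoxin, at -2.73 ± 0.27 (adjusted p = 4.38e-04). Cd36 measured 110.3 and 156 RPKM in Scramble and 12.3 and 8.29 in Atf3KO, against 135 and 145 in JunDKO. By the same minimum the largest rises were in Gpx4, the peroxidase that reduces lipid peroxides, at 1.30 ± 0.26 (adjusted p = 0.00688), in mitochondrial Txn2 at 1.29 ± 0.22 (adjusted p = 0.00389) and in the carbonyl reductase Cbr1 at 1.03 ± 0.24 (adjusted p = 0.0112). In JunKO the 2 genes that fell were Gsta3 (-1.63 ± 0.21, adjusted p = 0.0398) and Gss, glutathione synthetase (-1.53 ± 0.22, adjusted p = 0.0444). Like the 3 calls above, they were lost when any 1 library was left out.

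**Figure D3:**
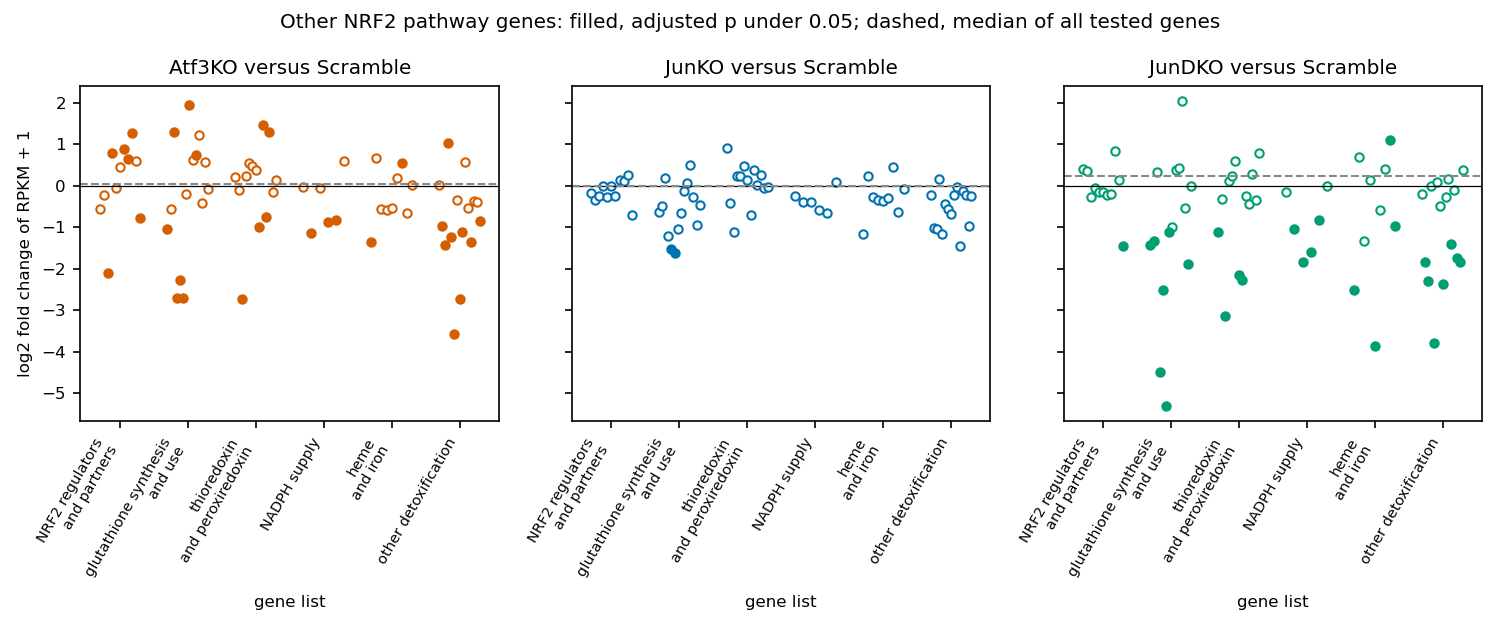
Fitted log2 fold change over Scramble of the tested genes of 6 pathway lists in each knockout, ordered by symbol within a list; filled points have an adjusted p under 0.05 and the dashed line is the median of all tested genes. In JunDKO 26 filled points lie below 0 and 1 above, in Atf3KO 21 below and 11 above, and in JunKO 2 below.

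Most of these transcripts were lower in a library of primary macrophages than in iBMDMs. The C57Bl/6EiJ vehicle TGEM library was compared with Scramble iBMDMs, which share strain and treatment. Cell type, mutant BRAF and Myc, the virus, and the letter code and date in the titles also differ between them. Reads of Xist differ too, with 3921 in this TGEM library and at most 1 in a Scramble library. These differences cannot be told apart. In the TGEM library 8 of the 10 genes were lower, against 27.3% of all tested genes, with a median log2 fold change of -2.05 beside -0.24 for all tested genes. The result rests on 1 TGEM library, whose spread is assumed to equal that of the other groups. With all 5 TGEM libraries in its place, which mix strains and treatments, 7 of the 10 were lower.

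Slc7a11 measured 1.51 RPKM in the C57Bl/6EiJ vehicle library and 1.402 to 4.04 over all 5 TGEM libraries, and differed from Scramble by -4.90 ± 0.44 on the log2 scale (adjusted p = 8.19e-05). Gclm measured 14.2 RPKM there and 6.85 to 28.6 over the 5 (-4.65 ± 0.41, adjusted p = 8.01e-05). Gclc at 8.33 RPKM (4.99 to 19.8 over the 5) differed by -3.05 ± 0.40 (adjusted p = 5.89e-04). All TGEM values of these 3 glutathione genes lay below both Scramble values.

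Txnrd1 measured 61.8 RPKM (-2.37 ± 0.34, adjusted p = 9.19e-04) and Hmox1 199 RPKM (-1.73 ± 0.36, adjusted p = 0.00519). Srxn1 measured 96.4 RPKM (-1.14 ± 0.26, adjusted p = 0.00832), closer to Scramble than the other targets. Nqo1 at 0.738 RPKM, 13.2-fold below the Scramble mean, had an adjusted p of 9.17e-04. The level of Nfe2l2 was 78.5 RPKM, different by -0.93 ± 0.28 (adjusted p = 0.0292). That call was lost without either Scramble library, after removal of the GC trend and with all 5 TGEM libraries in place of 1 (adjusted p = 0.124). The other 4 held 105 to 166 RPKM. Keap1 (19.6 RPKM, -0.10 ± 0.34, adjusted p = 0.830) and Bach1 (24.5 RPKM, 0.37 ± 0.20, adjusted p = 0.171) did not pass. The fold changes of all genes correlated with GC content here as well (Spearman's rho of 0.44 across 10848 genes), and after that trend was removed Keap1 fell to -1.03 (adjusted p = 0.00504) and Bach1 rose to 0.74 (adjusted p = 0.00777).

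Of the 71 other pathway genes tested in this comparison, 22 were lower in TGEMs and 9 higher, where 27.3% of all tested genes were lower and 15.5% higher. These counts were 39 and 13 with all 5 TGEM libraries and 20 and 14 with equal library medians. Among those with a group mean of at least 16 RPKM, the largest falls were in Gsta3, in Mgst2, a microsomal glutathione transferase, and in Abcc1, an exporter of glutathione conjugates. Abcc1 measured 9.58 RPKM against 145 and 129 in Scramble (-3.70 ± 0.27, adjusted p = 3.84e-05). Gsta3 measured 0.257 RPKM (adjusted p = 5.36e-05). Mgst2 had 1 read in the TGEM library, for which the ratio of Scramble over TGEM was 106 with an exact 95% interval of 17.9 to 4328 that covers counting error only. By the same minimum, the largest rises were in Gpx3, Cd36 and Gstm1. Gpx3, an extracellular glutathione peroxidase, measured 27.9 RPKM against 0.686 and 0.774 in Scramble, and was higher by 4.06 ± 0.39 (adjusted p = 1.14e-04). Cd36 was higher by 2.49 ± 0.29 (adjusted p = 3.39e-04) and Gstm1, a cytosolic glutathione transferase, by 1.82 ± 0.49 (adjusted p = 0.0178).

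The 1-h KLA response was tested in the 5 TGEM libraries with strain as a term. Of 9 genes tested, 0 passed in limma-trend and 0 in limma-voom on recovered reads, against 1.53% of all tested genes in limma-trend, while 2 had an unadjusted p under 0.05, as did 15% of all tested genes. Nqo1, at 0.597 to 1.88 RPKM, did not average 1 RPKM and was not tested. The 2 genes were Bach1 and Gclm. Bach1 measured 24.5 and 26.0 RPKM with vehicle and 17.9, 14.02 and 13.1 with KLA, and the groups did not overlap (-0.69 ± 0.25, adjusted p = 0.274). Gclm measured 14.2 and 28.6 RPKM with vehicle and 10.3, 15.4 and 6.85 with KLA, and the groups overlapped (-0.98 ± 0.39, adjusted p = 0.307).

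Srxn1 was the other gene without overlap, at 96.4 and 68.6 RPKM with vehicle and 113, 190.3 and 124 with KLA (0.75 ± 0.34, adjusted p = 0.347). With 1 library left out the value ranged from 0.22 to 1.15 for Srxn1, from -1.38 to -0.43 for Gclm and from -0.89 to -0.43 for Bach1, each smallest in size without the Balb/cJ vehicle library. A gap of this kind was present for 23.7% of all tested genes, and for 2 of the 9. Txnrd1 measured 61.8 and 99.4 RPKM with vehicle and 92.5, 266 and 142 with KLA (0.79 ± 0.34, adjusted p = 0.335). None of these differences passed. Within strains, the log2 differences from vehicle in the C57Bl/6EiJ library and in the first and second Balb/cJ libraries, which share 1 vehicle, were -0.43, -0.85 and -1.91 for Gclm and -0.28, -0.76 and -1.79 for Gclc. They were -0.43, -0.85 and -0.94 for Bach1 and -0.20, -0.56 and -0.69 for Keap1. For Txnrd1 they were 0.57, 1.41 and 0.51, and for Srxn1 0.22, 1.46 and 0.84. Nfe2l2 measured 78.5 and 118 RPKM with vehicle and 142, 166 and 105 with KLA (0.45 ± 0.32, adjusted p = 0.531). Against the vehicle library of its strain the log2 difference of Nfe2l2 was 0.85 in C57Bl/6EiJ and 0.49 in the first Balb/cJ KLA library, which carry the same label date as their vehicle. It was -0.17 in the second, which has a later date and no vehicle library of that date.

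Of 68 other pathway genes tested for KLA, 2 rose and 0 fell (1.29% of all tested genes rose). Maff, a small MAF protein of the kind that pairs with NRF2, measured 1.80 and 3.06 RPKM with vehicle and 49.1, 107 and 64.8 with KLA, a rise of 4.29 ± 0.30 on the log2 scale (adjusted p = 7.37e-04). Sod2, the mitochondrial superoxide dismutase, rose from 15.9 and 14.9 RPKM to 49.6, 68.0 and 46.5 RPKM (1.74 ± 0.28, adjusted p = 0.0306). Both genes were lower in every vehicle library than in every KLA library. The count of 2 became 1 without either C57Bl/6EiJ library or the first Balb/cJ KLA library, and 0 without the Balb/cJ vehicle library. Maff was at 0 to 1.80 RPKM in iBMDMs.

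**Figure D4:**
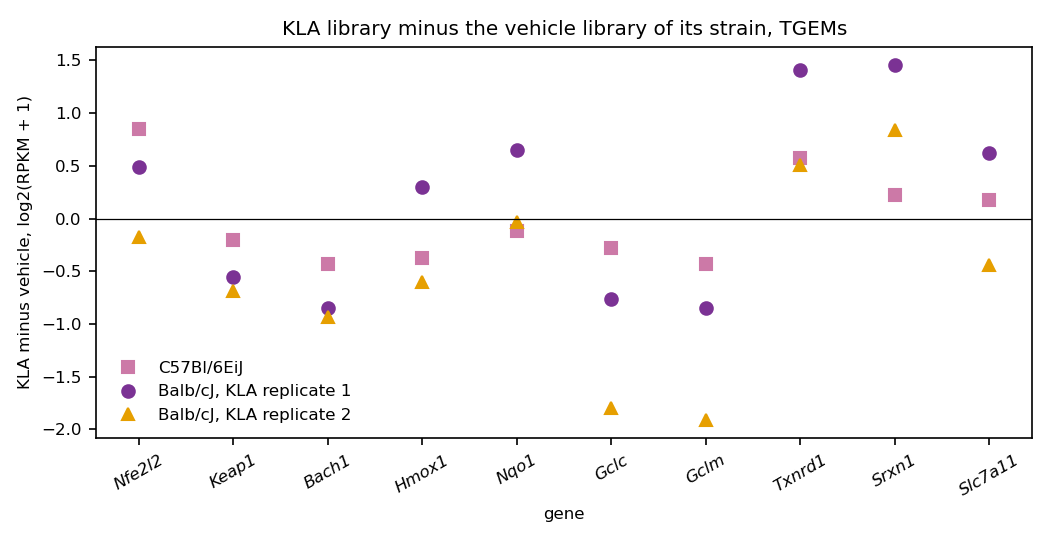
Difference in log2(RPKM + 1) between each KLA library and the vehicle library of its strain for the 10 genes in TGEMs; squares are C57Bl/6EiJ, circles and triangles the 2 Balb/cJ KLA libraries, which share 1 vehicle library. Nfe2l2 lies at 0.85 in C57Bl/6EiJ and at 0.49 and -0.17 in the Balb/cJ libraries, the second of which has no vehicle library of its label date.

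Between strains, 0 of the 9 tested genes passed in limma-trend, against 2.31% of all tested genes, and 2 had an unadjusted p under 0.05, as did 21.4% of all tested genes. These were Txnrd1, higher in Balb/cJ by 0.90 ± 0.34 (adjusted p = 0.192), and Keap1, at -0.64 ± 0.25 (adjusted p = 0.200). Limma-voom on recovered reads passed 1 of the 9, Txnrd1 (adjusted p = 0.0395). Fold changes of all genes between strains correlated with GC content (Spearman's rho of -0.45 across 10286 genes, given as a description). Over its 13 alternatives the value of Keap1 ranged from -0.82 to -0.25. Strain and the date on the labels cannot be told apart. The interaction of KLA and strain, with 1 residual degree of freedom, passed 0 of 9 genes in limma-trend and in limma-voom, with 0 of the 9 at an unadjusted p under 0.05. Over all 10357 tested genes limma-trend passed 0%, and 835 had an unadjusted p under 0.05.

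The genes of the set tracked one another to different degrees over the 8 iBMDM libraries. Pearson's r of log2(RPKM + 1), given as a description, was 0.98 between Gclm and Srxn1, between Gclm and Slc7a11 and between Srxn1 and Slc7a11, and 0.73 between Gclm and Gclc. For Nfe2l2 it was 0.75 with Bach1, 0.69 with Gclc and 0.50 with Txnrd1, from -0.09 to 0.18 with Nqo1, Hmox1, Slc7a11, Gclm and Srxn1, and -0.50 with Keap1. These libraries fall into 4 groups, so the 8 points are not independent. Over all 13 libraries r was 0.86 between Gclm and Slc7a11, 0.59 between Srxn1 and Slc7a11 and 0.13 between Gclm and Srxn1. Among 3965 genes with a mean of at least 16 RPKM, those most like Slc7a11 over the 13 libraries were Irak3 (r of 0.96), Cgnl1 (0.95) and Calu (0.95). Those most like Gclm were Hcls1, Lman1 and Cat (each 0.97), the last of which encodes catalase and stands on the detoxification list. Those most like Nfe2l2, Fem1b (0.75), Ssfa2 (0.72) and Skil (0.71), were less alike, and its own range was the narrowest of the 10.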

How the data were processed

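Of the 17 samples, 13 polyA libraries have a column of RPKM in the table deposited by the authors, with 24453 gene models. Nascent RNA from the remaining 4 (GRO-seq) was not used here. Per the labels and the header of the deposited table, the authors aligned with STAR to mm10 (for Balb/cJ, a strain genome built on mm10) and obtained RPKM over exons with HOMER. Versions and strand settings are not given in the sources used here. Low RPKM values multiplied by exon length are multiples of what a single read is worth, and depth and reads were recovered from them. In every library 100% of the values of up to 50 reads that were checked lay within 0.05 of a whole number.

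The test was limma-trend (limma 3.58.1, R 4.3.3) on log2(RPKM + 1), for models averaging 1 RPKM or more in the libraries of the fit. Group means were fitted over the 8 iBMDM libraries (4 residual degrees of freedom), treatment plus strain over the 5 TGEM libraries (2), and 8 groups over all 13 (5). Benjamini-Hochberg adjustment covered all tested genes, tests were two-sided, and a gene is said to rise or fall at an adjusted p under 0.05. The log2(RPKM + 1) scale understates changes of low genes. A single read over a kilobase of exon is worth 0.0542 to 0.644 RPKM, depending on the library. Limits and intervals from reads cover counting error only. The GC correction removed a natural spline with 5 degrees of freedom in each library (98.8% of models had a GC value). Limma-voom was run on the recovered reads.

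The 10 genes, the pathway lists and the tests were chosen with earlier results of these data known. For each knockout against Scramble, TGEMs against iBMDMs and KLA, the text names up to 3 listed genes with the largest rise and 3 with the largest fall. They were chosen among those that passed with a group mean of at least 16 RPKM. Between knockouts and between strains, genes of the lists passed as well and are not named. The crossed replicate block and the fits without the Atf3KO libraries were added after the values were seen. The code was tested on simulated data. It ran in Python 3.11.15 with pandas 2.3.3, numpy 2.4.6, scipy 1.17.1 and matplotlib 3.10.9.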

Additional observations from a re-analysis of the deposited data

How the results depend on the processing

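The number of the 10 genes past the threshold stayed within 1.5 times of that reported in Atf3KO (7 to 8 over 14 alternatives), JunDKO (6 to 7), Atf3KO against JunDKO (5 to 6), JunDKO against JunKO (4 to 7) and TGEMs against iBMDMs (7 to 9 over 11). For JunKO, 3 genes as reported became 1 without a filter, 5 with limma-voom on recovered reads, 6 with the GC trend removed, 1 with a replicate block, 0 with only the 2 groups compared and 0 to 0 with 1 library left out. Atf3KO against JunKO gave 6, and 3 to 6 with 1 library left out. The strain comparison gave 0, and 1 with limma-voom. KLA gave 0 in all 14 alternatives, and the interaction 0 in the 7 that could be fitted. Leaving out libraries left the interaction no residual degrees of freedom.

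Values that changed sign had not passed the test. In Atf3KO, Keap1 went from 0.12 to -0.0016 with equal library medians, -0.058 with quantile normalization and -0.63 with the GC trend removed, and to between -0.22 and 0.47 with 1 library left out. Nqo1 went from -0.18 to 0.093 with the GC trend removed and to between -0.50 and 0.14 with 1 library left out. In JunDKO, Bach1 went to -0.25 with equal medians and -0.19 with quantile normalization, where Nfe2l2 went to 0.037. With 1 library left out, the ranges were -0.014 to 0.089 for Bach1, -0.50 to 0.078 for Keap1 and -0.18 to 0.0068 for Nfe2l2 in JunDKO, -0.31 to 0.27 for Keap1 and -0.18 to 0.10 for Hmox1 in JunKO, and -0.14 to 0.40 for Slc7a11 under KLA. In TGEMs against iBMDMs, Keap1 went to 0.14 with equal medians, 0.11 with quantile normalization and -0.39 to 0.19 with 1 library left out. The cause was not tested.

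Equal library medians moved the median log2 fold change of all genes from 0.23 to -0.03 in JunDKO, where the 7 genes that fell had log2 fold changes from -1.73 (Gclc) to -5.62 (Slc7a11), and from -0.24 to -0.02 in TGEMs against iBMDMs. Genes called higher and lower then went from 741 and 515 to 344 and 764, and from 1692 and 2986 to 2304 and 2458.

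Over all genes the number past the threshold was 4409 (2087 to 5489 over the alternatives) in Atf3KO, 30 (14 to 103) in JunKO, 1256 (409 to 2364) in JunDKO, 3792 (1544 to 5015) for Atf3KO against JunKO, 4355 (2147 to 5868) for Atf3KO against JunDKO, 870 (228 to 1970) for JunDKO against JunKO, 158 (28 to 431) for KLA, 239 (32 to 793) for strain and 0 (0 to 144) for the interaction. Deviations of libraries with the same replicate number correlated at 0.18 to 0.22 between the 3 pairs of groups without Atf3KO and at -0.21 to -0.12 in the 3 pairs with it, and the numbers were not taken to pair the samples. With a replicate block 1 of the 10 genes passed in JunKO, 7 in Atf3KO and 7 in JunDKO. With the Atf3KO numbers crossed, 5489 genes passed in Atf3KO, against 4113 with the block as numbered.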
